A study of Canis lupus familiaris with 28 samples.

Results

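The response to cell contact was followed in TR-T10 cells in which p190A alone had been knocked down. TR-T10 is a dog cell line in which doxycycline induces the shRNAs. The comparison used 4 libraries of 28 in the series, chosen by their labels as the p190A shRNA cells of experiment 1: confluent replicates 1 and 2 against sub-confluent replicates 1 and 2. Cells with the p190A shRNA had been selected in hygromycin and received 4 µg/ml doxycycline for 3 days before replating for 3 to 5 days at either density. The same experiment held 2 confluent and 2 sub-confluent libraries each of p190B knockdown cells (p190B shRNA, selected in puromycin), of double knockdown cells (p190B knockdown cells given the p190A shRNA as well, then selected in hygromycin) and of wild-type cells. Experiment 2 held confluent cells: double knockdown with YAP5SA+S94A, a group labelled YAP5SA, double knockdown and wild type. Its labels do not settle whether the YAP5SA group also carried the shRNAs, and its replicates 1 and 2 had the same count for every transcript and entered as 1 sample. Each knockdown line was selected separately, so the shRNA and the selection cannot be told apart. All samples carry the same treatment text, which names doxycycline as the inducer of knockdown and does not say separately whether wild-type cells received it.

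p190A, the product of ARHGAP35, and its paralogue p190B, the product of ARHGAP5, are GTPase-activating proteins that act on the cytoskeleton. Tension in the cytoskeleton favours nuclear entry of the transcriptional coactivator YAP1, which works with TEAD transcription factors. In dense cultures, contact between cells activates the LATS kinases of the Hippo pathway, which phosphorylate YAP1 and keep it out of the nucleus, and cells stop dividing. The title of the series links p190 to contact inhibition through YAP1, and these libraries address how far the response to contact is retained when p190A alone is lowered. The files identify transcripts by Ensembl number and do not pair them with gene names, and the gene table used here matched 0 of the 29884 identifiers. The knockdown could therefore not be checked on ARHGAP35, nor the line on epithelial markers, and the results are given for groups of transcripts and for 4 transcripts by identifier.

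The 4 p190A libraries had 11696718 to 16041130 reads assigned to single transcripts, within the 10706716 to 17215544 of experiment 1, and 15338 to 15511 transcripts detected. Of all transcripts, 12845 had enough counts to be tested. The labels do not say whether replicates came from different cultures. The p-values for contact responses rest on the variation between replicates pooled over the 16 libraries of experiment 1, which may be technical. The sub-confluent p190A replicates had a median absolute log2 difference of 0.28, against 0.15 to 0.21 in the other 7 groups. The p-values and intervals for p190A cells therefore do not measure the spread of the p190A libraries alone.

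The sub-confluent p190A libraries stood apart from each other. Between them, 843 transcripts differed at least 2-fold in CPM (a transcript's count after every library is brought to the same total), 548 higher in replicate 1 and 295 higher in replicate 2, while the replicates of the other 7 groups of experiment 1 differed at least 2-fold for 308 to 634. Sub-confluent replicate 1 lay closer to the confluent libraries than to its own replicate: 681 transcripts separated it by at least 2-fold from confluent replicate 1 and 627 from confluent replicate 2. Sub-confluent replicate 2 was separated from the confluent replicates by 1925 and 1829 transcripts. The 4 confluent to sub-confluent pairs of p190B knockdown libraries gave 908 to 1437, those of double knockdown libraries 615 to 1083 and those of wild-type libraries 1652 to 1844. In the p190A pairs the number varied with the sub-confluent library used and little with the confluent one.

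The difference between the sub-confluent p190A libraries ran along the contact response of other cells. Genes are not independent replicates, and the following correlations run across the 12845 transcripts as a description. The log2 difference of replicate 1 minus replicate 2 correlated with the contact response of wild-type cells at r = 0.593 and with that of p190B knockdown cells at r = 0.518, and these share no library with it. Of the 780 transcripts that wild-type cells raised at least 2-fold at confluence, 686 (87.9%) were nearer the confluent p190A level in sub-confluent replicate 1 than in replicate 2, and of the 457 lowered ones 417 (91.2%), against 73.6% of all tested transcripts. The replicate difference also correlated with that of sub-confluent replicate 1 minus replicate 2 in other cells, at r = 0.252 for p190B knockdown, 0.366 for double knockdown and 0.292 for wild type. Sub-confluent replicate 1 had 14417410 assigned reads and 15441 transcripts detected, and replicate 2 had 16041130 and 15431. Reads aligned to several places made up 26.3% and 25.7% of entries in the confluent libraries, against 26.5% in sub-confluent replicate 1 and 28.9% in replicate 2. The part of depth and of these shares in the result was not tested. The counts of called transcripts and the medians in p190A cells are therefore also given without either sub-confluent library.

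With p190A knocked down, confluent cells had 497 transcripts above and 890 below their sub-confluent level (adjusted p under 0.05 by edgeR quasi-likelihood), or 10.8% of those tested (3.87% higher and 6.93% lower). The 188 raised 2-fold or more (1.46% of those tested) and the 267 lowered 2-fold or more (2.08%) form the p190A-raised and p190A-lowered sets. At least 4-fold changes were called for 43 higher and 36 lower transcripts, and at least 8-fold for 9 and 8. In this fit, lowered transcripts were thus more numerous at small folds and the numbers were nearly even at large ones. The balance at 2-fold or more depended on the method. DESeq2 called 226 higher and 259 lower, limma-voom 231 and 208, and edgeR with no filter on low counts 448 and 357. The median log2 fold change over all tested transcripts was -0.01. With the same number of libraries and the same threshold, p190B knockdown cells had 10.4% of transcripts called, double knockdown cells 1.81% and wild-type cells 29.3%.

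The balance of directions moved with abundance. Transcripts were split into 4 nearly equal groups by mean log2 CPM over all 16 libraries. Among the 3212 least abundant, 91 were called higher and 60 lower, and the median log2 fold change was 0.16 with a median standard error of 0.46. Among the 3211 most abundant, 129 were called higher and 372 lower, with a median log2 fold change of -0.08 and a median standard error of 0.12. The called change was at least 2-fold for 85 of the 91 and 58 of the 60 in the least abundant group, and for 15 of the 129 and 47 of the 372 in the most abundant one. Abundant transcripts were therefore called mostly for small decreases, and scarce ones mostly for large changes.

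The counts rested on single libraries. Without sub-confluent replicate 1, 1553 transcripts were higher and 1981 lower, and without sub-confluent replicate 2, 6 and 123. Without confluent replicate 1 the calls were 0 and 2, and without confluent replicate 2 they were 32 and 176. A fit of the 4 p190A libraries alone called 41 higher and 108 lower. All 497 raised and all 890 lowered transcripts kept their sign in each of the 4 fits without a p190A library. This was nearly fixed by the choice and is no sign of stability. For all of them, both confluent libraries lay on one side of both sub-confluent ones, as for 55.7% of all tested transcripts. The median log2 fold change of the 497 was 1.14 without sub-confluent replicate 1 and 0.59 without replicate 2, and that of the 890 was -0.92 and -0.54. Leaving out a library leaves its group with 1 library, which is then assumed to vary like the other groups. Calls in p190B knockdown and in wild-type cells also fell without any of their own libraries. Those in double knockdown cells fell without any of theirs except sub-confluent replicate 1. A fall in calls on leaving out a library is thus not particular to p190A knockdown cells.

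**Figure D1:**
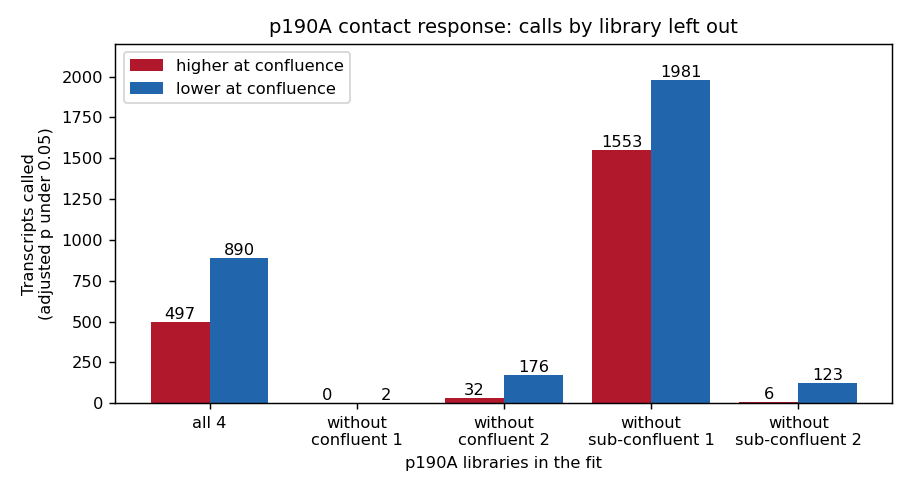
Number of transcripts called at adjusted p under 0.05 in the p190A contact response (y axis) with all 4 p190A libraries and with each left out in turn (x axis); red bars are higher and blue bars lower at confluence. Leaving out sub-confluent replicate 1 raised the calls to 1553 and 1981, and leaving out any of the other 3 libraries lowered them.

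For each direction, 2 transcripts under the rule for naming are given by library, in order of fold change. The lowered ones were the only 2 of 763 called in each fit without a p190A library. Of the raised ones, 0 of 353 met that requirement, and it was dropped for them. The spread of raised and lowered transcripts is therefore not compared. ENSCAFT00000018820, the first in rank of those raised, had 338 and 442 CPM in the confluent p190A libraries, against 128 and 43.9 CPM in the sub-confluent ones. The groups did not overlap, as the rule for naming required, and the sub-confluent libraries lay further apart than the confluent ones on the log scale. Contact gave a log2 fold change of 2.18 (edgeR quasi-likelihood, SE 0.46, adjusted p = 1.3e-02), 3.15 without sub-confluent replicate 1 (adjusted p = 5.8e-03) and 1.60 without replicate 2 (adjusted p = 2.7e-01). The call was also lost without confluent replicate 1 (adjusted p = 7.6e-02) and without confluent replicate 2 (adjusted p = 8.4e-02). The response of this transcript to contact was a log2 fold change of 2.07 (SE 0.46) in p190B knockdown, 1.08 (SE 0.46) in double knockdown and 3.12 (SE 0.48) in wild-type cells. The differences of the p190A response from these did not pass the test, at 0.11 (95% interval -1.24 to 1.46) from p190B knockdown, 1.10 (-0.26 to 2.47) from double knockdown and -0.94 (-2.30 to 0.42) from wild type.

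ENSCAFT00000029936, the second of those raised, had 202 and 230 CPM in the confluent p190A libraries, against 98.4 and 29.1 CPM in the sub-confluent ones. Again sub-confluent replicate 1 lay between replicate 2 and the confluent pair. The log2 fold change was 1.76 (edgeR quasi-likelihood, SE 0.40, adjusted p = 1.7e-02), 2.89 without sub-confluent replicate 1 (adjusted p = 3.2e-04) and 1.13 without replicate 2 (adjusted p = 1.4e-01). Without confluent replicates 1 and 2 in turn the adjusted p was 8.8e-02 and 8.9e-02. Its level in confluent cells was 216 ± 19.9 CPM in p190A knockdown, 639 ± 67.6 CPM in p190B knockdown, 325 ± 0.564 CPM in double knockdown and 94.2 ± 19.5 CPM in wild-type cells (SD, n = 2 each). The contact response was a log2 fold change of 1.65 (SE 0.39) in p190B knockdown, 0.97 (SE 0.38) in double knockdown and 2.23 (SE 0.42) in wild-type cells. In experiment 2 the transcript had a log2 fold change of 2.31 (edgeR, SE 0.06, adjusted p = 3.9e-38) between double knockdown and wild-type cells, both confluent.

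ENSCAFT00000005678, the first of those lowered, had 57.5 and 60.4 CPM in the confluent p190A libraries, against 139 and 166 CPM in the sub-confluent ones. The log2 fold change was -1.37 (edgeR quasi-likelihood, SE 0.13, adjusted p = 6.1e-04). In double knockdown cells the level was 153 and 139 CPM at confluence, against 170 and 159 CPM in sub-confluent cells, and the contact response was -0.17 (SE 0.13, adjusted p = 5.3e-01) on the log2 scale. The response with p190A knocked down was lower than that of the double knockdown by a log2 difference of -1.21 (SE 0.19, adjusted p = 1.7e-02). Against wild type the difference was 0.03 (95% interval -0.37 to 0.44). In experiment 2 the level was 87.8 ± 5.96 CPM in confluent double knockdown and 46.99 ± 0.269 CPM in confluent wild-type cells (SD, n = 3 each). The difference was 0.90 on the log2 scale (edgeR, SE 0.05, adjusted p = 2.0e-24).

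ENSCAFT00000009743, the second of those lowered, had 71.9 and 71.0 CPM in the confluent p190A libraries, against 138 and 149 CPM in the sub-confluent ones. Here the replicates lay close together and the groups well apart. The log2 fold change was -1.01 (edgeR quasi-likelihood, SE 0.10, adjusted p = 6.1e-04). It was -0.67 (SE 0.10) in p190B knockdown, -0.50 (SE 0.10) in double knockdown and -1.11 (SE 0.10) in wild-type cells. None of the differences of the p190A response from these passed the test (adjusted p of 1.5e-01 against double knockdown and 1.0e+00 against the others). Both lowered transcripts were chosen for being called in each fit without a p190A library.

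**Figure D2:**
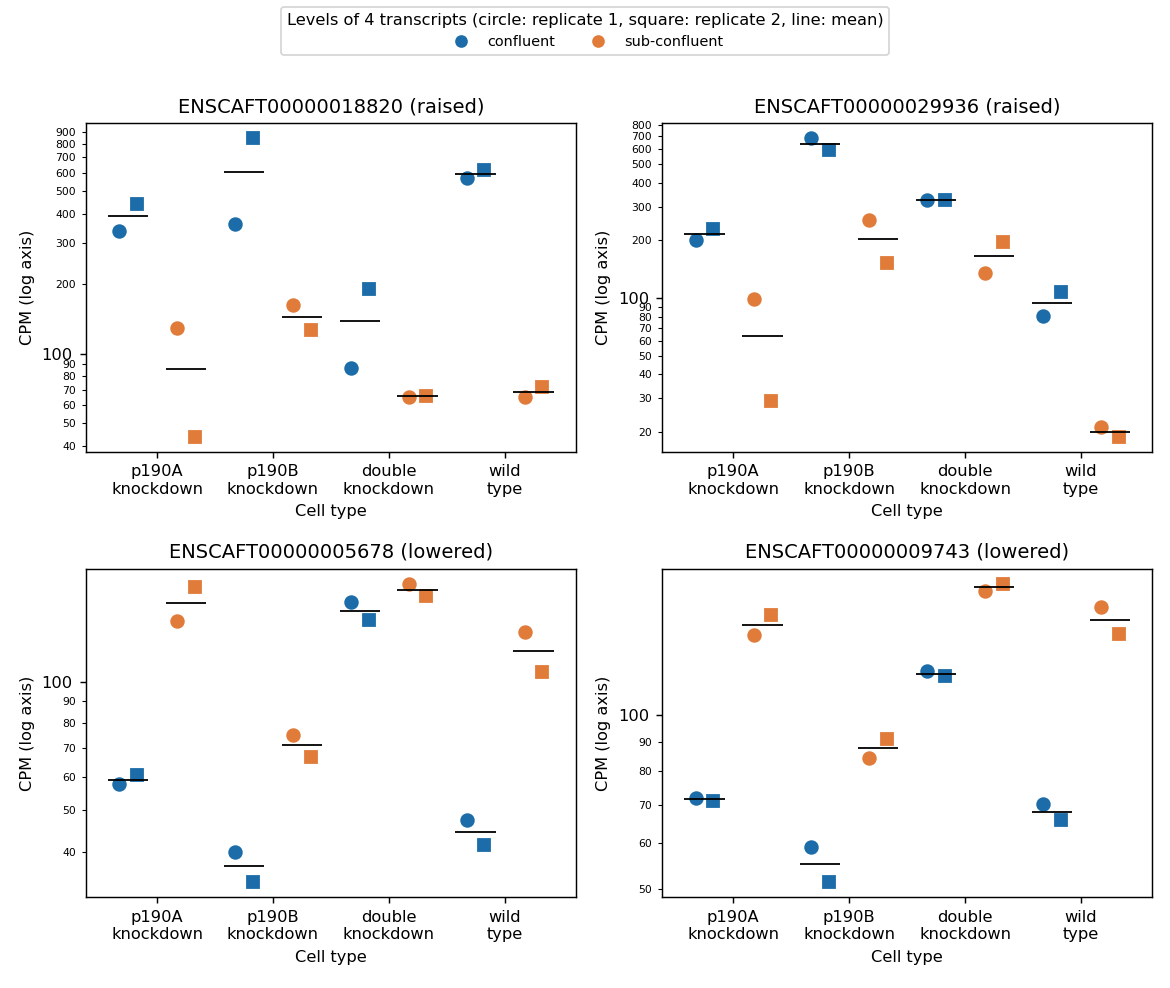
Levels in CPM on a log axis of the 4 transcripts in each library of experiment 1, by cell type, with confluent libraries in blue left of sub-confluent ones in orange (circles replicate 1, squares replicate 2, lines group means). In p190A knockdown cells the raised transcripts ENSCAFT00000018820 and ENSCAFT00000029936 had sub-confluent replicate 1 between replicate 2 and the confluent libraries, and ENSCAFT00000005678 stayed high at confluence in double knockdown cells.

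Most transcripts called with p190A knocked down were also called, in the same direction, in wild-type libraries, which share no sample with them. The lists come from the same fit with a shared estimate of the spread, so they are not independent. Of all tested transcripts, 4.49% were called higher in p190B knockdown, 0.911% in double knockdown and 14.3% in wild-type cells. The shares called lower were 5.92%, 0.895% and 15%. Of the 497 raised transcripts, 202 were called higher in p190B knockdown cells (40.6% of the p190A list and 35.01% of the 577 called there) and 45 in double knockdown cells (9.05% of the p190A list and 38.5% of the 117 called there). In wild-type cells 438 were called higher (88.1% of the p190A list and 23.8% of the 1839 called there). Of the 890 lowered transcripts, 443 were called lower in p190B knockdown cells (49.8% of the p190A list and 58.3% of the 760 called there) and 53 in double knockdown cells (5.96% and 46.1% of the 115 called there). In wild-type cells 754 were called lower (84.7% of the p190A list and 39.1% of the 1930 called there). None was called in the opposite direction in wild-type or p190B knockdown cells, and 3 of the lowered ones were called higher in double knockdown cells. Called in p190A knockdown cells and in none of the other 3 cell types were 43 raised and 114 lowered transcripts. Being called in 1 cell type and not in another does not show that the responses differ.

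Over the p190A-raised set of 188 the median contact response on the log2 scale was 1.13 in p190B knockdown, 0.72 in double knockdown and 1.64 in wild-type cells. Of its members, 78 were called higher in p190B knockdown (background 4.49%), 14 in double knockdown (0.911%) and 170 in wild-type cells (14.3%). The p190A-lowered set of 267 had medians of -1.04 in p190B knockdown, -0.33 in double knockdown and -1.28 in wild-type cells, and 154 were called lower in p190B knockdown (background 5.92%), 32 in double knockdown (0.895%) and 223 in wild-type cells (15%). The medians over all transcripts tested were 0.02 in p190B knockdown, 0.01 in double knockdown and 0.01 in wild-type cells. The p190A libraries chose both sets, so their own response in these sets is not compared with the others.

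**Figure D3:**
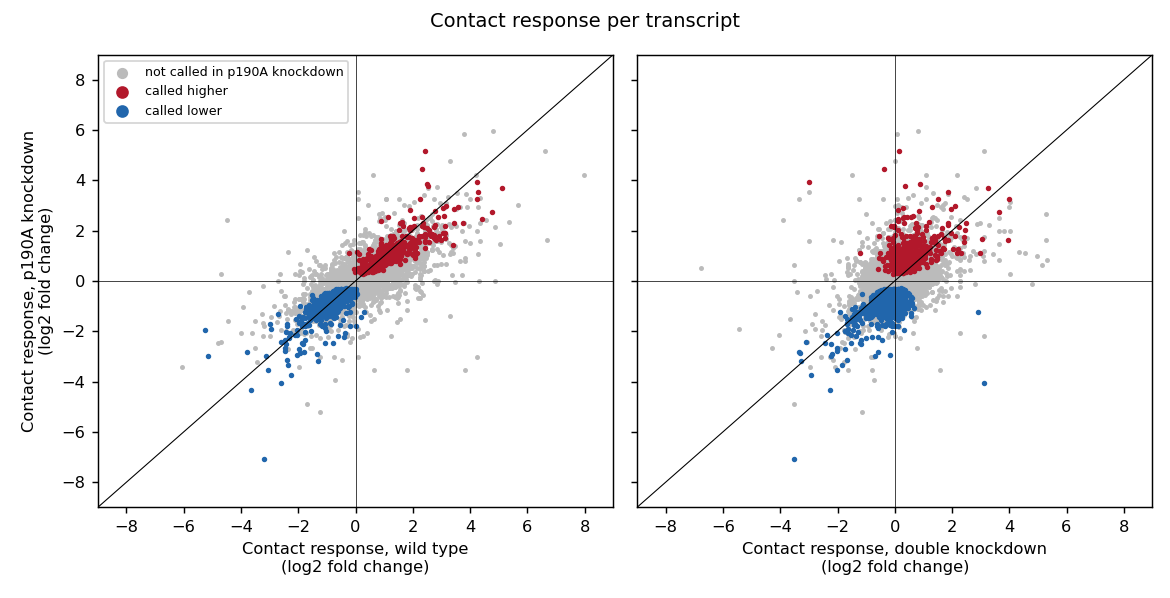
Contact response as log2 fold change, confluent over sub-confluent, of each of the 12845 transcripts in p190A knockdown cells (y axis) against wild-type cells (left) and double knockdown cells (right); red and blue points are the 497 and 890 called higher and lower with p190A knocked down, and the diagonal marks equal responses. The coloured points were chosen on the y axis, so their distance from the diagonal is no comparison of the cell types.

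Sets chosen in wild-type cells showed how much of the wild-type response was seen with p190A knocked down. Of the 780 transcripts raised at least 2-fold at confluence in wild-type cells (6.07% of those tested), 237 were called higher in p190A knockdown cells and 0 lower. Of all tested transcripts, 3.87% were called higher and 6.93% lower there. The median log2 fold change of the 780 was 0.97, with 748 positive, against 6260 of 12845 positive over all tested. Without sub-confluent replicates 1 and 2 in turn, with the wild-type set chosen again in each fit, the median was 1.46 and 0.61, over sets of 808 and 807. Of the 457 lowered transcripts (3.56%), 285 were called lower and 0 higher in p190A knockdown cells. Their median was -1.05, with 447 negative, against 6580 of 12845 negative over all tested. Without sub-confluent replicates 1 and 2 in turn this median was -1.32 and -0.67, over sets of 487 and 484. The 780 raised transcripts together made up 26252 and 25616 CPM in the confluent p190A libraries, against 18325 and 9474 CPM in the sub-confluent ones. The 457 lowered transcripts made up 28037 and 29260 CPM in the confluent libraries, against 41927 and 62787 CPM in the sub-confluent ones. In bulk RNA, fewer cells expressing a transcript and less of it per cell cannot be told apart.

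The same sets were read in p190B knockdown cells. There, 230 of the 780 raised transcripts were called higher (4.49% of all tested), with a median of 0.95. Of the 457 lowered ones, 243 were called lower (5.92% of all tested), with a median of -0.97. The p190A medians of 0.97 and -1.05 lay near these with all libraries, and on either side of them without sub-confluent p190A replicate 1 or 2. Tested transcript by transcript, the p190A and p190B contact responses differed for 0 of 12845 (0% called by edgeR, with 580 or 4.52% at unadjusted p under 0.05, where 5% would pass with no effect). limma-voom also called 0, DESeq2 called 4 and edgeR called 16 without sub-confluent p190A replicate 1, 2 without replicate 2 and 1 without sub-confluent p190B replicate 1. Over the wild-type sets the median difference, p190A minus p190B, was 0.03 for raised and -0.05 for lowered transcripts. A single transcript's difference had a median standard error of 0.56 in the raised and 0.39 in the lowered set, so modest differences between the knockdowns were not detectable.

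To set p190A knockdown and wild-type cells side by side, transcripts were taken from p190B knockdown cells, whose libraries belong to neither. The 234 transcripts raised at least 2-fold at confluence there (1.82% of those tested) had a median response of 1.00 on the log2 scale in p190A knockdown, 0.70 in double knockdown and 1.53 in wild-type cells, and 86 were called higher in p190A knockdown (3.87% of all tested), 9 in double knockdown (0.911%) and 189 in wild-type cells (14.3%). By library, the median distance of these transcripts from the confluent mean of the same cell type was -0.57 in sub-confluent p190A replicate 1 and -1.43 in replicate 2. In wild-type cells it was -1.46 and -1.45. The wild-type libraries thus lay about as far from their own confluent mean as p190A replicate 2 did, and p190A replicate 1 lay nearer its own. These are distances and not levels. Summed over the 234 transcripts, confluent libraries had 9960.4 and 9831.0 CPM in p190A knockdown, against 13814.5 and 15481.4 CPM in wild-type cells. Sub-confluent ones had 6482.7 and 3087.5 CPM, against 4125.6 and 4007.7 CPM.

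The 205 transcripts lowered at least 2-fold in p190B knockdown cells (1.6%) had medians of -1.14 in p190A knockdown, -0.17 in double knockdown and -1.28 in wild-type cells, and 139 were called lower in p190A knockdown (6.93% of all tested), 25 in double knockdown (0.895%) and 181 in wild-type cells (15%). Their distance from the confluent mean was 0.72 in sub-confluent p190A replicate 1 and 1.39 in replicate 2, against 1.26 and 1.28 in the wild-type replicates. The p190B sets were chosen again in each fit without a library. Without sub-confluent p190A replicate 1 they held 298 raised and 247 lowered transcripts, and the p190A medians were 1.61 and -1.44, past the wild-type 1.53 and -1.27. Without replicate 2 they held 300 and 246, and the p190A medians were 0.58 and -0.71, against the wild-type 1.52 and -1.26. Whether p190A knockdown cells gave a smaller or a larger median response on the p190B-chosen sets than wild-type cells therefore turned on which sub-confluent library was left out.

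**Figure D4:**
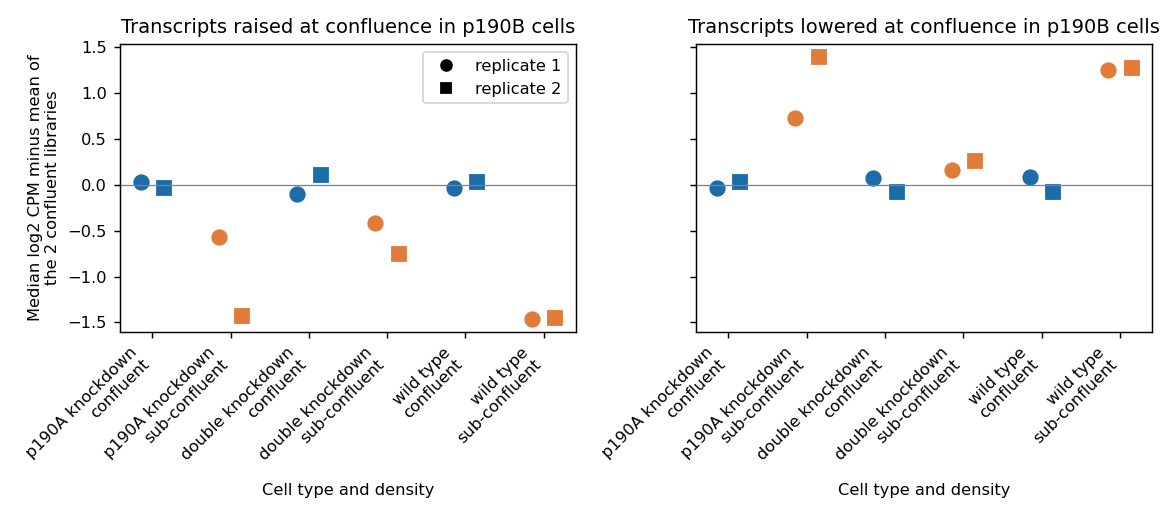
Median log2 CPM of transcripts raised (left, 234) and lowered (right, 205) at confluence in p190B knockdown cells, relative to the mean of the 2 confluent libraries of each cell type (y axis), in the libraries of p190A knockdown, double knockdown and wild-type cells (x axis; circles replicate 1, squares replicate 2). Sub-confluent p190A replicate 2 lay beside the wild-type libraries, and replicate 1 at -0.57 and 0.72.

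Tested transcript by transcript, the contact response of p190A knockdown cells differed from that of wild-type cells for 0 of 12845 (0% called by edgeR, lowest adjusted p 0.112), with 530 (4.13%) at unadjusted p under 0.05. limma-voom called 0, DESeq2 12 and edgeR 23 without sub-confluent p190A replicate 2, of which 4 had a more positive and 19 a more negative response with p190A knocked down. Without sub-confluent p190A replicate 1 edgeR called 0. The 95% interval of the difference lay within 2-fold either way for 8165 transcripts (63.6%), and for 1527 (11.9%) it reached past 2-fold in both directions. Over the p190B-chosen transcripts the median difference, p190A minus wild type, was -0.56 for the raised, 198 of 234 being negative, and 0.20 for the lowered, 153 of 205 being positive. Over all 12845 tested transcripts, 6776 of these differences were negative and 6069 positive. The leaning on the p190B-chosen transcripts depended on sub-confluent p190A replicate 1. Without it, on sets chosen again, the p190A medians were 1.61 and -1.44, against the wild-type 1.53 and -1.27. The interval covered 0 for 204 of the raised and 198 of the lowered transcripts chosen in p190B cells, and none was called.

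The contact response with p190A knocked down did differ from that of the double knockdown. The difference passed the test for 58 transcripts, 0.452% of all (adjusted p under 0.05 by edgeR), 55 with a more negative (0.428%) and 3 with a more positive response in p190A knockdown cells (0.0234%). Within the wild-type sets, 30 of the 457 lowered and 0 of the 780 raised transcripts were called. The median difference, p190A minus double knockdown, was -0.70 for the lowered, 404 being negative, and 0.43 for the raised, 590 being positive. Over all 12845 tested transcripts, 6899 of these differences were negative and 5945 positive.

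The 55 transcripts were abundant, with a median mean log2 CPM of 6.58 against 4.46 over all tested. Their median level was 69.9 and 70.7 CPM in the confluent p190A libraries, against 135 and 148 CPM in the sub-confluent ones. In the double knockdown it was 153 and 135 CPM at confluence, against 115 and 131 CPM in sub-confluent cells. Both densities of the double knockdown thus lay near the sub-confluent p190A level. These 8 libraries chose the transcripts, so their values are a description. In libraries the choice did not use, 52 of the 55 were called lower at confluence in p190B knockdown and 52 in wild-type cells, with medians of -0.92 and -1.03, where 5.92% and 15% of all tested transcripts were called lower. In experiment 2, 46 of the 55 were higher and 6 lower in confluent double knockdown cells, set against confluent wild-type cells, with a median log2 fold change of 0.50, where 35.2% of all tested transcripts were called higher and 35.1% lower.

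These calls also depended on single libraries. All 55 kept their sign in every alternative fit, but they had been chosen from these libraries for that difference. The total of 58 became 0 and 4 without confluent p190A replicates 1 and 2, and 364 and 41 without sub-confluent p190A replicates 1 and 2. Of the double knockdown libraries, leaving out confluent replicate 1 gave 0 calls, leaving out confluent replicate 2 gave 39, and leaving out sub-confluent replicates 1 and 2 gave 53 and 86. Leaving out either sub-confluent p190B library, which is in neither cell type compared, gave 34. DESeq2 called 195 and a fit of only these 4 groups called 0, with 927 at unadjusted p under 0.05. The median difference of the 55 stayed between -1.06 and -1.33 over these fits.

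In experiment 2, whose cells were all confluent and which shares no library with experiment 1, most members of the p190A contact sets that were called between double knockdown and wild-type cells had the sign opposite to their contact response. Of the p190A-raised set, 185 of 188 were tested there, and 120 were lower and 30 higher with double knockdown, against wild type (edgeR, adjusted p under 0.05), with a median of -0.59 on the log2 scale. Of the p190A-lowered set, 258 of 267 were tested, of which 181 were higher and 48 lower; their median was 0.56. All tested transcripts had a median of 0.00, and 70.3% of them were called, 35.2% higher and 35.1% lower.

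Between the libraries labelled YAP5SA and those of double knockdown cells with YAP5SA+S94A, the sets behaved unequally. YAP5SA is a YAP1 that LATS kinases can no longer switch off, because its target serines were replaced, and S94A removes its binding to TEAD. Of the p190A-raised set, 91 were higher and 28 lower in the libraries labelled YAP5SA, with a median log2 fold change of 0.29, where 54.3% of all tested transcripts were called, 27.8% higher and 26.5% lower. The p190A-lowered set had 86 higher and 80 lower members and a median of 0.03. Because one label of the YAP5SA group names the shRNAs and another does not, the YAP protein and the knockdown cannot be told apart in this comparison.

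**Figure D5:**
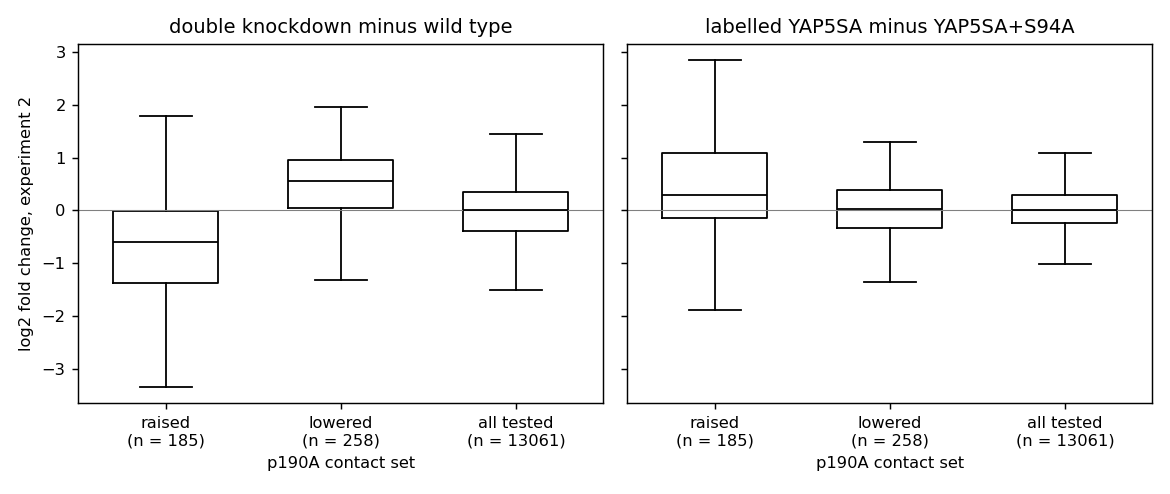
Log2 fold changes in experiment 2 (y axis) of the p190A-raised (n = 185) and p190A-lowered (n = 258) sets and of all 13061 transcripts tested (x axis), for double knockdown over wild type (left) and the libraries labelled YAP5SA over double knockdown with YAP5SA+S94A (right); boxes span the quartiles with the median as a line, and whiskers reach 1.5 times the box. The raised set had a median of -0.59 and the lowered set of 0.56 in the left panel, and 0.29 and 0.03 in the right one.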

How the data were processed

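RNA with integrity numbers above 9.5 went into TruSeq mRNA libraries for single-read sequencing, per the labels' protocols. Tools in the submitters' processing notes, given without roles, are HTSeq 0.6.0, STAR 2.3.1n and DESeq2 1.4.5, and the build is CanFam3.1. The authors deposited raw counts per Ensembl transcript, with 5 summary rows, which were left out of totals and tests. Ambiguous reads, 21.2% to 23.1% of uniquely aligned reads in experiment 1, are not in any transcript's count, so overlapping transcripts are measured from part of their reads, and 21.2% to 23.6% lay outside any transcript. The strand setting of the counting was not stated in the sources at hand.

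The 16 libraries of experiment 1 were fitted with 8 group means in edgeR 4.0.16 (R 4.3.3) after filterByExpr and TMM scaling, with robust quasi-likelihood F-tests and Benjamini-Hochberg adjustment. The 11 distinct libraries of experiment 2 were fitted likewise. Contact responses are confluent over sub-confluent, and differences between them are interaction contrasts. Standard errors were derived from the F statistic. Log2 CPM per library used a prior count of 2. The fit was tested on data simulated with the same spread in every group. That cannot show how it handles the wider spread of the sub-confluent p190A libraries. Alternatives were RLE factors, no filter, DESeq2 1.42.0, limma-voom (limma 3.58.1), fewer groups, replicate blocks and leaving out each library.

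The named transcripts had adjusted p under 0.05, mean log2 CPM of at least 3, no overlap between densities and, where at least 2 qualified, calls in every fit without a p190A library, ranked by fold. That last requirement left 0 of 353 raised transcripts, so it was dropped for them, and 2 of 763 lowered ones. Gene lists and cell type markers were not run, as no identifier has a symbol. Members and sets were chosen with earlier results of these data known.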

Additional observations from a re-analysis of the deposited data

Results flagged for a closer look

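The contact response differed between p190A knockdown and double knockdown cells for 58 transcripts, 0.452% of those tested (edgeR interaction test, adjusted p under 0.05). Of these, 55 were more negative with p190A knocked down. The calls depended on single libraries, and a fit of only the groups compared called 0. Among the transcripts named by rank, ENSCAFT00000005678 was one of the 55, with a log2 difference of -1.21 (SE 0.19, adjusted p = 1.7e-02 by edgeR). It fell at confluence in p190A knockdown cells, with a log2 fold change of -1.37, and had -0.17 in double knockdown cells, where its fall did not pass the test. The other 3 named transcripts had no difference that passed the test against any of the other cell types.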

How the results depend on the processing

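With no filter on low counts, the p190A contact response had 2595 calls in place of 1387, and the differences from wild type, p190B knockdown and double knockdown 118, 89 and 488. DESeq2 gave 12, 4 and 195 for these differences. In fits of only the groups compared the contact response had 149 calls and the difference from double knockdown 0. A replicate block over all libraries changed none of these counts by over 1.5 times (1859 calls for the contact response). A replicate block within density gave 17, 3 and 338 for the differences. The labels do not say that a number marks a shared culture, and each group has only 2. Replicate differences of p190A libraries correlated with those of the other cell types at the same density. Across transcripts, r was 0.269 to 0.380 in confluent and 0.252 to 0.366 in sub-confluent cells. Across densities within p190A cells it was 0.0176. Whether replicates of the same number were paired was not tested. Over the 16 fits without a library, calls ranged from 2 to 3534 for the contact response, 0 to 23 against wild type, 0 to 16 against p190B knockdown and 0 to 364 against double knockdown.

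Set medians kept their sign in every alternative run. Sets chosen at adjusted p under 0.05 with no fold had smaller medians, since they hold smaller changes: in p190A cells 0.53 and -0.45 for those raised and lowered in wild type, and -0.59 for those lowered in p190B cells. The p190B sets had 0.86 and -0.79 in wild type and 0.34 (raised) in double knockdown cells. The p190A sets had 0.99 and -0.79 in wild type, 0.64 and -0.56 in p190B and 0.39 and -0.18 in double knockdown cells. Over the fits without a p190A library, the medians in p190A cells were 0.61 to 1.46 and -1.32 to -0.67 for the wild-type sets, and 0.58 to 1.61 and -1.44 to -0.71 for the p190B sets. The p190B sets had -0.25 to -0.15 (lowered) in double knockdown cells. The p190A sets, rechosen each time, had 1.16 to 1.36 and -1.33 to -1.14 in wild type, 0.82 to 1.01 and -1.03 to -0.81 in p190B and 0.53 to 0.63 and -0.39 to -0.13 in double knockdown cells. These ranges mix sets of 3 to 702 raised and 2 to 541 lowered transcripts and say little of stability. No raised set could be chosen without confluent p190A replicate 1. Of 23 alternatives each, both raised named transcripts were called in 18. The replicate block within density is among the 23 and gives the contact response at replicate 1, not over both replicates. Neither raised transcript was called in it. The lowered ones were called in 23, of which the 4 without a p190A library were a condition of their choice. Counts of 2 libraries a group limit what can be detected.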
